A study of Rattus norvegicus with 6 samples.

Results

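Collagen chains and the enzymes that modify collagen were examined in primary rat VSMCs. The genes were chosen by symbol from the authors' table, as all collagen chains (symbols of the form Col, a number, a and a number) and 19 named enzymes and helpers of collagen processing. This gave 49 of the 13526 genes in the table, 31 chains and 18 modifying enzymes. Crtap, the remaining enzyme of the rule, was not analysed here. The cells came from the thoracic aorta of male wild-type rats and had been passaged in culture. All 6 libraries came from VSMCs cultured in OM, the osteogenic medium with 10 mM β-GP and 3.5 mM CaCl2, for 5 days by the labels, while a figure legend of the study gives a shorter time. The medium is given as in the treatment protocol, whereas titles in the labels call it Pi. In the OM plus EMPA group (n = 3) the medium also held 1 μM empagliflozin, which blocks the glucose transporter SGLT2, and the OM group (n = 3) had no drug. No library of VSMCs outside OM was analysed, so each value below compares OM with the drug against OM without it. Nothing states that the samples of a group were separate cultures or rats, so the p-values reflect the spread among these libraries alone, and that spread may be technical.

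Collagens are secreted proteins whose chains wind around each other into a stiff helix. Fibrillar collagens form the load-bearing fibrils of the arterial wall, collagen IV forms the sheet of the basement membrane that surrounds each smooth muscle cell, and FACIT collagens sit on the surface of fibrils. In the endoplasmic reticulum prolyl and lysyl hydroxylases modify the chains and the chaperone HSP47 holds them folded. Outside the cell procollagen C-proteinase removes the end of the chain so that fibrils can form, and lysyl oxidases cross-link them. In calcifying arteries and in bone, mineral is laid down on a collagen matrix.

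The cells expressed mainly type I collagen. Levels are given in TPM, a unit that takes out transcript length and library size. TPM can therefore be set side by side between genes, and they carry no record of sequencing depth. Col1a1 had 4933, 5509 and 4955 TPM in the OM plus EMPA libraries, against 4104, 4889 and 4125 TPM in the OM libraries. Col1a2 had 2843, 3295 and 3002 TPM in the OM plus EMPA libraries, against 2349, 2821 and 2471 TPM in the OM libraries. These chains of type I collagen ranked highest among the 49 genes and together made up 62.9, 64.6 and 63.0% of the TPM of all collagen chains in the OM plus EMPA libraries and 62.1, 64.0 and 61.5% in the OM libraries. Pcolce, Serpinh1, Col3a1 and Plod2 followed. The lowest gene was Col19a1, at 0.13 to 0.20 TPM with empagliflozin and 0.08 to 0.16 TPM in OM alone. All chains together took 1.24, 1.36 and 1.26% of TPM in the OM plus EMPA libraries and 1.04, 1.21 and 1.07% in the OM libraries. The group means were 1.29 ± 0.0668% with empagliflozin and 1.11 ± 0.088% in OM alone (SD, n = 3 each), a difference of 0.182 percentage points, and the lowest OM plus EMPA library lay above the highest OM library.

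**Figure D1:**
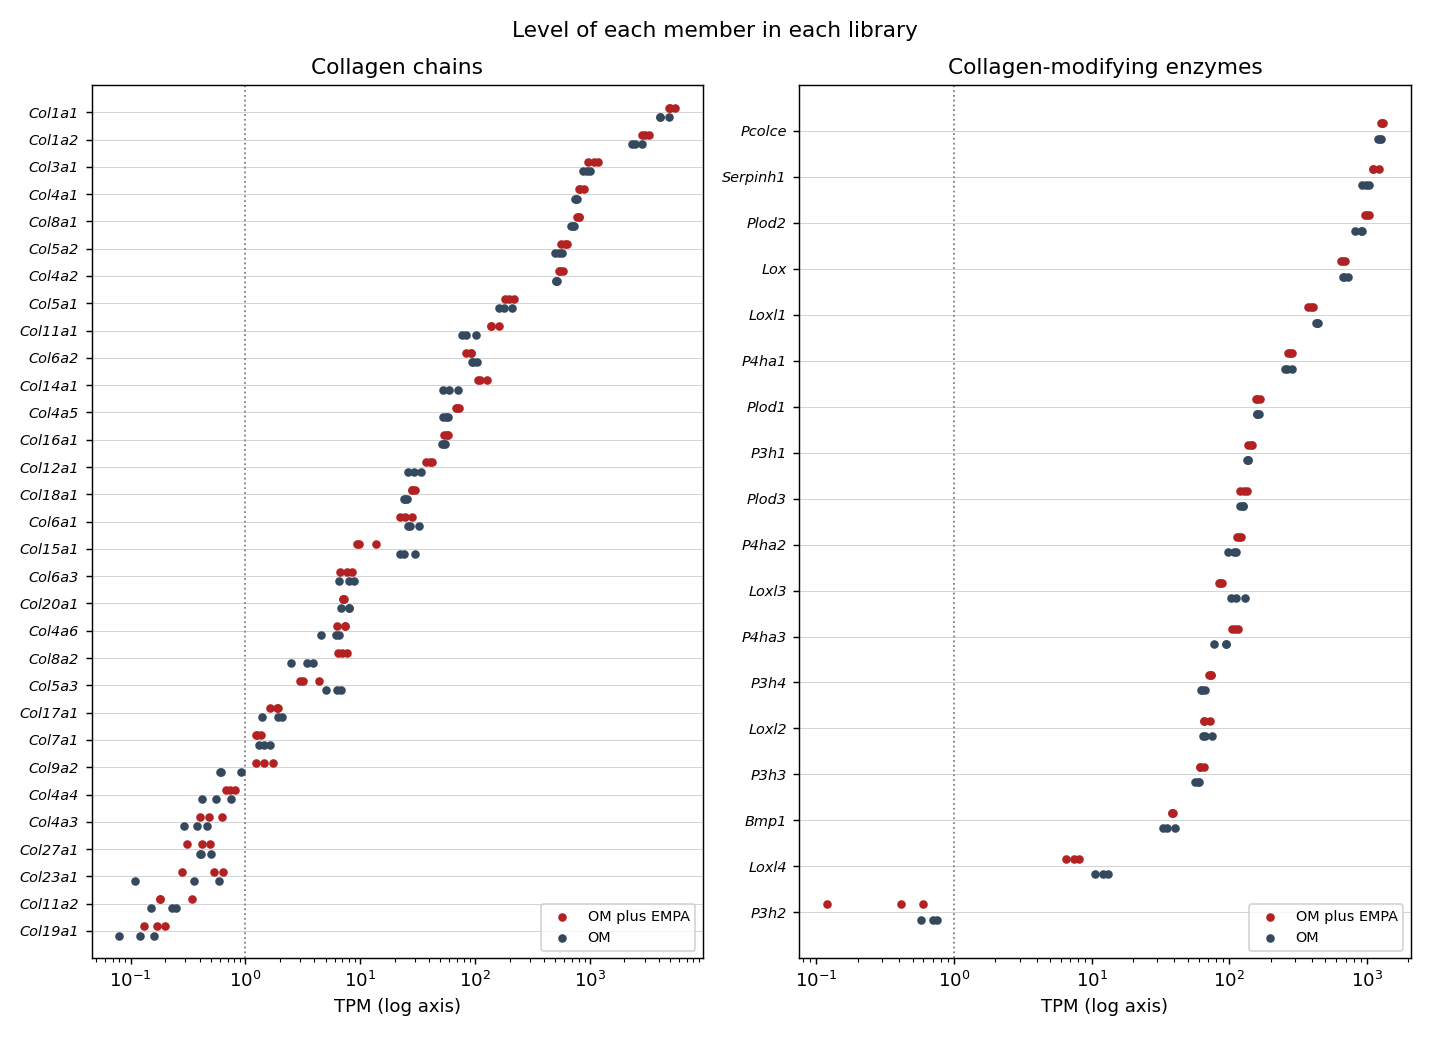
Level of each of the 49 genes in each library, in TPM on a log axis, with collagen chains on the left and collagen-modifying enzymes on the right. Each point is 1 library, red for OM plus EMPA and dark blue for OM, and the dotted line marks 1 TPM. Col1a1 leads the chains in all 6 libraries, and the red and blue points of Col15a1, Col11a1, Col14a1, Col8a2 and Loxl4 do not overlap.

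The test was limma's moderated test of log2(TPM + 1) in 12564 genes whose mean reached 1 TPM, and p-values were adjusted over all of them after Benjamini and Hochberg. The added 1 makes fold changes of low genes look smaller than they are. Of the 49 genes, 42 reached the filter and 7 did not. At an adjusted p of at most 0.05, 6 of the 42 rose (14.3%) and 4 fell (9.5%), where 2.06% of all tested genes rose and 4.86% fell. The genes that rose were Col14a1, Col8a2, Col11a1, Col12a1, Col4a5 and P3h4, and those that fell were Col15a1, Col5a3, Loxl4 and Loxl3. Of the 25 tested chains 5 rose and 2 fell, and of the 17 tested enzymes 1 rose and 2 fell. When libraries were scaled to each other by median ratios, 10 of the 42 rose and 3 fell, where 3.11% and 3.03% of all tested genes did. The 6 that rose were kept, Col18a1, P4ha3, Col8a1 and Col4a2 were added to them, and Col5a3 was lost from those that fell.

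The 42 genes had a median log2 fold change of 0.11, and all tested genes one of -0.054. Positive values were found for 30 of the 42 and negative ones for 12. The lowest OM plus EMPA library was above the highest OM library for 18 of them (42.9%, against 7.85% of all tested genes), and the highest OM plus EMPA library was below the lowest OM library for 6 (14.3%, against 22.5% of all tested genes). Of the 32 that did not pass the test, 13 had an unadjusted p under 0.05 in limma and 14 did not overlap between the groups. The same was not counted over all tested genes that did not pass, so whether these numbers are unusual is unknown. With all 6 libraries 10 of the 42 were called, where 6.92% of all tested genes were. With any 1 library left out both were lower. These fits hold fewer libraries, and the part of that in lost calls was not tested. The number called also differed with the library left out. It was 6 when OM plus EMPA replicate 1 was left out (3.39% of all tested genes) and 5 when OM plus EMPA replicate 2 was (2.58%). It was 6 when OM replicate 3 was left out (2.88%), and 7 or 8 without each of the others (3.09 to 5.21%). Col14a1, Col15a1, Col11a1 and Col8a2 were called whichever library was left out.

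**Figure D2:**
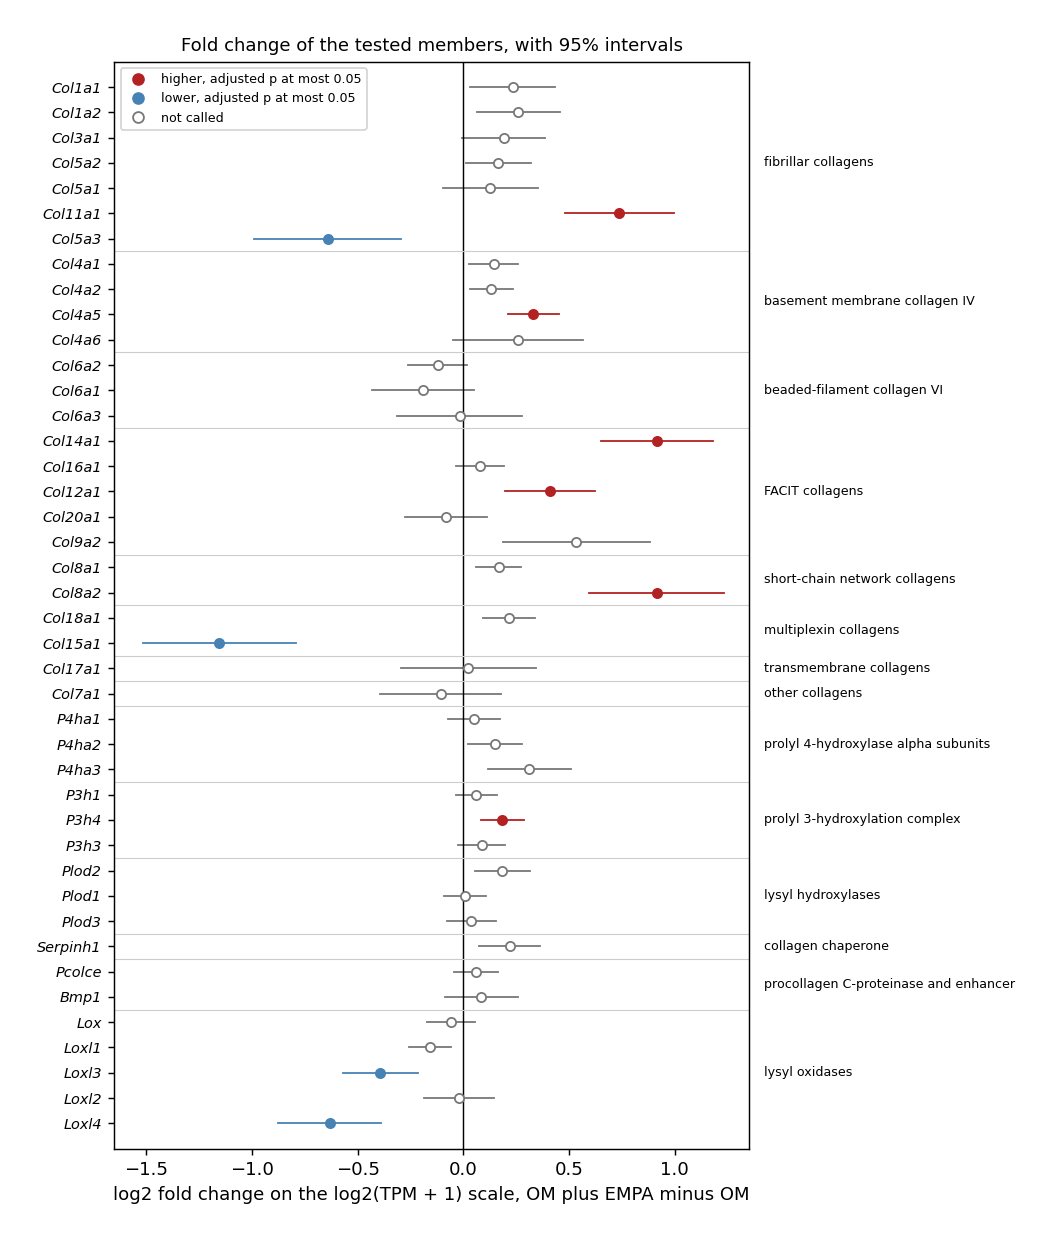
Difference of mean log2(TPM + 1) between OM plus EMPA and OM for the 42 tested genes, with 95% intervals from limma, positive where OM plus EMPA was higher, grouped by role. Filled points passed the test, red for the 6 that rose and blue for the 4 that fell, and open points did not. Col14a1 at 0.92 and Col8a2 at 0.91 lie farthest to the right and Col15a1 at -1.15 farthest to the left.

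Among the fibrillar collagens the minor chain Col11a1 rose and the minor chain Col5a3 fell. Col11a1 encodes a chain of collagen XI, which in cartilage lies at the core of thin fibrils. It had 138, 162 and 138 TPM in the OM plus EMPA libraries, against 76.5, 103 and 83.8 TPM in the OM libraries. No OM library reached the lowest OM plus EMPA library, and the means were 146 ± 14.1 TPM with empagliflozin and 87.6 ± 13.5 TPM in OM alone (SD, n = 3 each), a 1.67-fold higher level with empagliflozin (log2 fold change 0.74 with an SE of 0.11, limma adjusted p = 0.0108). In the authors' table it lies on chromosome 2 from 201820703 to 202013853, on a build that the sources used here do not name. Col5a3, a chain of collagen V that is restricted to few tissues, had 3.01, 3.18 and 4.38 TPM in the OM plus EMPA libraries, against 6.32, 5.01 and 6.78 TPM in the OM libraries. Every OM plus EMPA library was below every OM library (log2 fold change -0.64 with an SE of 0.15, limma adjusted p = 0.045). This call at low TPM was lost under median-ratio scaling (adjusted p = 0.0619 from limma), without OM plus EMPA replicate 1 or 2 and also without OM replicate 1 or 3 (adjusted p = 0.115 to 0.14 from limma).

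The abundant fibrillar chains had higher means with empagliflozin and did not pass the test. Col1a1 averaged 5132 ± 326 TPM with empagliflozin and 4373 ± 447 TPM in OM alone (SD, n = 3 each, log2 fold change 0.23, 95% interval 0.033 to 0.43, adjusted p = 0.156 from limma). Col1a2 averaged 3046 ± 229 TPM with empagliflozin and 2547 ± 245 TPM without (log2 fold change 0.26, 95% interval 0.063 to 0.46, adjusted p = 0.116 from limma). The OM plus EMPA libraries of both genes lay above the OM libraries, and the closest pair for Col1a1 was 4933 TPM against 4889 TPM. Col3a1, the chain of type III collagen of distensible tissues, had 964, 1179 and 1093 TPM in the OM plus EMPA libraries, against 869, 1014 and 947 TPM in the OM libraries, and the groups overlapped (log2 fold change 0.19, adjusted p = 0.22 from limma). For Col5a2 and Col5a1, the chains of the widespread form of collagen V, the log2 fold changes were 0.17 and 0.13, with adjusted p-values of 0.183 and 0.468 from limma. In each of Col1a1, Col1a2, Col3a1, Col5a1 and Col5a2 the replicate numbered 2 was the highest library of both groups. Col11a2 and Col27a1 were under 1 TPM in each library.

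The upstream sequence of Col11a1 is shown because this chain rose whichever library was left out. It covers the 250 bases before the RefSeq start of the gene on the build GRCr8, at chr2:204508886-204509135 on the plus strand. Capitals mark matches, on either strand, to 5 letter patterns, and no match overlaps another in this window. The TATA box was searched as TATAAA and the CCAAT box as its name spells it. The letters of the GC box were GGGCGG, those of the Runx core TGTGGT, and an AP-1 site was searched as TGANTCA with any base at N.
Col11a1 upstream: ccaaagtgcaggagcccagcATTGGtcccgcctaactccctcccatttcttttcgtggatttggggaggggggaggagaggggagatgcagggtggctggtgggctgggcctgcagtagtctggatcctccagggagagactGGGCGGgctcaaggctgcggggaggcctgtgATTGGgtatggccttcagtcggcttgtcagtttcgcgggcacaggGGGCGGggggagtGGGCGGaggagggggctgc
The window holds 2 CCAAT boxes, written ATTGG here because they lie on the other strand, and 3 GC boxes. Of all 33469 RefSeq windows of this length, 34.0% hold a CCAAT box, 30.5% a GC box, 12.9% a TATA box, 14.5% the Runx core and 6.3% the AP-1 site. A match of letters is not evidence that a factor binds.

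Among the FACIT collagens Col14a1 and Col12a1 rose. Both encode homotrimers that decorate type I collagen fibrils in tendon, skin and the vessel wall. Col14a1 had 111, 128 and 106 TPM in the OM plus EMPA libraries, against 59.0, 70.8 and 52.3 TPM in the OM libraries. Its groups were far apart, with means of 115 ± 12.0 TPM with empagliflozin and 60.7 ± 9.35 TPM in OM alone (SD, n = 3 each), 1.89-fold higher with empagliflozin (log2 fold change 0.92 with an SE of 0.11, limma adjusted p = 0.00552). Col14a1 lies on chromosome 7 from 86722074 to 86937923 and Col12a1 on chromosome 8 from 80547592 to 80665816 in the authors' table. Col12a1 had 37.6, 41.8 and 40.6 TPM in the OM plus EMPA libraries, against 26.3, 34.1 and 29.5 TPM in the OM libraries, with no overlap (log2 fold change 0.41 with an SE of 0.092, limma adjusted p = 0.0406). The call of Col12a1 was kept without OM replicate 2 and lost without each of the other 5 libraries (adjusted p = 0.0711 to 0.13 from limma), while its log2 fold change stayed between 0.32 and 0.50.

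Other FACIT chains did not pass the test. Col16a1, found in many connective tissues, had 56.6, 54.2 and 58.6 TPM with empagliflozin and 51.5, 54.8 and 53.8 TPM in OM alone (log2 fold change 0.080, 95% interval -0.034 to 0.19, adjusted p = 0.362 from limma). Col9a2, a chain of the cartilage collagen IX, had 1.45, 1.74 and 1.24 TPM with empagliflozin and 0.600, 0.920 and 0.610 TPM in OM alone, with no overlap but close to the filter (log2 fold change 0.53, adjusted p = 0.0788 from limma). Col20a1 had a log2 fold change of -0.081 (adjusted p = 0.598 from limma), and its span in the authors' table overlaps that of Arfgap1. Col19a1 was under the filter.

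Of the network-forming collagens Col8a2 and Col4a5 rose. Collagen VIII is a short-chain collagen made by endothelial cells and by smooth muscle cells of injured arteries, and its chains are Col8a1 and Col8a2. Col8a2 had 6.38, 7.72 and 6.95 TPM in the OM plus EMPA libraries, against 2.52, 3.87 and 3.46 TPM in the OM libraries. The OM plus EMPA libraries were all above the OM libraries, with means of 7.02 ± 0.672 TPM with empagliflozin and 3.28 ± 0.692 TPM in OM alone (SD, n = 3 each), 2.14-fold higher with empagliflozin (log2 fold change 0.91 with an SE of 0.14, limma adjusted p = 0.0112). Col8a2 lies on chromosome 5 from 138585999 to 138612852 in the authors' table. Col8a1, the far more abundant partner, had 809, 770.2 and 813 TPM in the OM plus EMPA libraries, against 682, 717 and 730.2 TPM in the OM libraries, which also did not overlap. Its difference was smaller and did not pass the test (log2 fold change 0.17, 95% interval 0.062 to 0.27, adjusted p = 0.0714 from limma), although it did under median-ratio scaling (adjusted p = 0.0291 from limma).

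The upstream window of Col8a2, on chromosome 5 of GRCr8 at chr5:143870519-143870768 on the plus strand, is printed beside that of Col11a1 because its fold change was among the largest.
Col8a2 upstream: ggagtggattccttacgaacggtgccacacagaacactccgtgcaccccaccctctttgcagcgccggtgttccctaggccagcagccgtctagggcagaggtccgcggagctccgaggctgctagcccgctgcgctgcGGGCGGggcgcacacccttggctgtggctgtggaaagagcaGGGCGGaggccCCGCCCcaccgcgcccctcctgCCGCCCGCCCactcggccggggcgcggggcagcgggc
The capitals mark 5 GC boxes, of which the last pair share bases, and the window holds no CCAAT box, TATA box, Runx core or AP-1 letters.

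Collagen IV genes lie head to head in pairs, and the members of a pair are transcribed in opposite directions. Col4a5, a chain that forms networks with Col4a6 or with Col4a3 and Col4a4, had 69.1, 72.4 and 68.2 TPM in the OM plus EMPA libraries, against 52.3, 58.1 and 55.7 TPM in the OM libraries. All OM plus EMPA libraries exceeded all OM libraries (log2 fold change 0.33 with an SE of 0.053, limma adjusted p = 0.0126). Without OM plus EMPA replicate 2 its adjusted p was 0.0525 from limma. In the authors' table Col4a5 lies on chromosome X from 105118820 to 105322694. Its neighbour Col4a6 had 7.32, 7.43 and 6.32 TPM with empagliflozin and 6.21, 6.51 and 4.53 TPM in OM alone, with overlap (log2 fold change 0.26, adjusted p = 0.28 from limma). On GRCr8 1263 bases separate the RefSeq starts of Col4a5 and Col4a6.

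Col4a1 and Col4a2, which form the common network of basement membranes, moved side by side and did not pass the test. Col4a1 had 887, 823 and 799 TPM in the OM plus EMPA libraries, against 759, 771 and 739 TPM in the OM libraries. Col4a2 had 586, 544 and 548 TPM in the OM plus EMPA libraries, against 509, 519 and 504 TPM in the OM libraries. Neither gene's groups overlapped, and the log2 fold changes were 0.14 (95% interval 0.027 to 0.26, adjusted p = 0.137 from limma) and 0.13 (95% interval 0.030 to 0.23, adjusted p = 0.122 from limma). Under median-ratio scaling the adjusted p-values from limma were 0.0505 for Col4a1 and 0.037 for Col4a2. Their listed spans share 307 bases in the authors' table, and those of Col4a3 and Col4a4 share 316. The library kit was a NEBNext Ultra RNA kit. The sources do not say whether strand was used in counting, so reads from a shared stretch may not have been told apart. Col4a3 and Col4a4 stayed under 1 TPM.

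The sequence between the starts of Col4a2 and Col4a1 is shown because it is the region that this pair shares. It is 76 bases long, lies at chr16:84885521-84885596 on GRCr8 and is written on the strand of Col4a1, so that Col4a2 begins to the left of it and is transcribed leftwards.
Col4a2 to Col4a1 interval: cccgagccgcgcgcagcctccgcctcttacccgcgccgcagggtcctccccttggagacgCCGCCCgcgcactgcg
The capitals mark 1 GC box, on the strand of Col4a2, and none of the other letter patterns searched is present.

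Of the multiplexins, collagens of the zone next to basement membranes whose ends can be cleaved to anti-angiogenic fragments, Col15a1 fell. It had 9.42, 9.71 and 13.7 TPM in the OM plus EMPA libraries, against 22.0, 24.1 and 30.1 TPM in the OM libraries. The highest OM plus EMPA library was below the lowest OM library, and the means were 10.9 ± 2.39 TPM with empagliflozin and 25.4 ± 4.21 TPM in OM alone (SD, n = 3 each), a ratio of 0.430 (log2 fold change -1.15 with an SE of 0.16, limma adjusted p = 0.00726). This was the largest change in either direction among the 42 genes. Col15a1 lies on chromosome 5 from 61501963 to 61607591 in the authors' table. Col18a1, the other multiplexin, whose fragment is endostatin, had 28.0, 28.5 and 30.0 TPM in the OM plus EMPA libraries, against 25.4, 24.5 and 24.2 TPM in the OM libraries. Its groups did not overlap either, in the other direction, and it missed the threshold (log2 fold change 0.22, 95% interval 0.092 to 0.34, adjusted p = 0.0529 from limma) but not under median-ratio scaling (adjusted p = 0.0249 from limma).

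The upstream window of Col15a1 is printed as that of the gene that fell most, from chr5:66297296-66297545 of GRCr8 on the plus strand.
Col15a1 upstream: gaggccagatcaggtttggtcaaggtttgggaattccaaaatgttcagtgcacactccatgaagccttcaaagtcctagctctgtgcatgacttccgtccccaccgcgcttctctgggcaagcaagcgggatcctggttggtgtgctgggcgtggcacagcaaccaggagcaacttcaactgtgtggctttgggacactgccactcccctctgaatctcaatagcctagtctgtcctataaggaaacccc
It has no capitals, because none of the 5 letter patterns is in it. Absence of these letters from 250 bases says nothing about the factors.

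Collagen VI, which forms beaded filaments around cells, was lower in mean without passing the test. Col6a2 had 83.9, 93.2 and 92.9 TPM in the OM plus EMPA libraries, against 95.4, 104 and 94.7 TPM in the OM libraries, and Col6a1 had 22.4, 28.0 and 24.4 TPM with empagliflozin and 26.9, 32.4 and 26.3 TPM in OM alone. Col6a2 did not overlap and Col6a1 did. The log2 fold changes were -0.12 for Col6a2 and -0.19 for Col6a1, with adjusted p-values of 0.258 and 0.312 from limma. Col6a3 was at -0.017, and at 0.034 under median-ratio scaling. Its TPM was below that of its partners in each library, at 7.62 ± 0.977 TPM with empagliflozin and 7.74 ± 1.16 TPM without. Low levels were also found for Col17a1, a transmembrane collagen of epithelia, at 1.65 to 1.94 TPM with empagliflozin and 1.40 to 2.08 TPM without, and for Col7a1, the collagen of anchoring fibrils, at 1.23 to 1.36 TPM with empagliflozin and 1.31 to 1.63 TPM without. The log2 fold changes of Col17a1 and Col7a1 were 0.024 and -0.11 (adjusted p = 0.937 and 0.639 from limma). Col23a1, another transmembrane collagen, was under the filter.

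**Figure D3:**
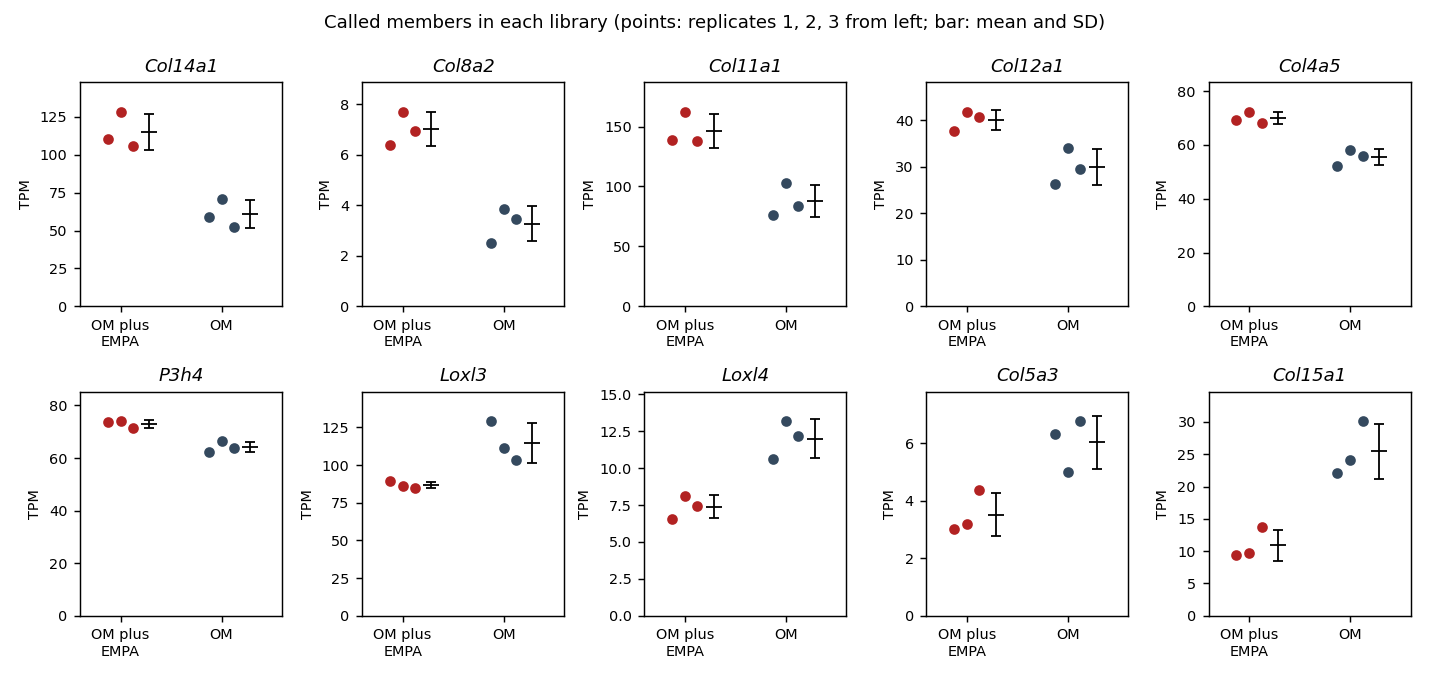
TPM of the 10 called genes in each library, with replicates 1, 2 and 3 from left to right in each group and the mean and SD (n = 3) beside them as a bar. Each axis starts at 0. The OM plus EMPA points lie above the OM points for Col14a1, Col8a2, Col11a1, Col12a1, Col4a5 and P3h4 and below them for Loxl3, Loxl4, Col5a3 and Col15a1.

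The enzymes and the chaperone that act in the endoplasmic reticulum had small differences. Serpinh1, which encodes HSP47, had 1101, 1233 and 1106 TPM in the OM plus EMPA libraries, against 992, 1033 and 929 TPM in the OM libraries. The groups did not overlap, but the difference did not pass the test (log2 fold change 0.22, 95% interval 0.073 to 0.36, adjusted p = 0.0842 from limma). Plod2, the lysyl hydroxylase that acts on the ends of fibrillar chains, had 974, 997 and 1043 TPM in the OM plus EMPA libraries, against 825, 916 and 913 TPM in the OM libraries, again without overlap (log2 fold change 0.18, 95% interval 0.055 to 0.31, adjusted p = 0.0957 from limma). Plod1, which hydroxylates the helix, and Plod3, which also adds glucose to collagen, had log2 fold changes of 0.0070 and 0.039 (adjusted p = 0.941 and 0.683 from limma). The interval of Plod1 was -0.093 to 0.11.

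Among prolyl 4-hydroxylase subunits P4ha3 had the largest difference. It had 111, 115 and 104 TPM in the OM plus EMPA libraries, against 94.7, 94.5 and 76.9 TPM in the OM libraries, with no overlap (log2 fold change 0.31, 95% interval 0.12 to 0.51, adjusted p = 0.0704 from limma), and it passed under median-ratio scaling (adjusted p = 0.0436 from limma). P4ha2 had 115, 118 and 121 TPM with empagliflozin and 108, 113 and 98.7 TPM in OM alone (log2 fold change 0.15, adjusted p = 0.159 from limma). P4ha1, the most abundant of the subunits, overlapped between groups at 277 ± 10.7 TPM with empagliflozin and 267 ± 15.3 TPM without (log2 fold change 0.050, adjusted p = 0.606 from limma).

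In the prolyl 3-hydroxylation group P3h4 rose. P3h4 encodes a protein without known hydroxylase activity that in mouse works with P3h3 and Plod1 in lysine hydroxylation. It had 73.6, 74.1 and 71.4 TPM in the OM plus EMPA libraries, against 62.4, 66.3 and 63.8 TPM in the OM libraries, with means of 73.0 ± 1.46 TPM with empagliflozin and 64.2 ± 1.99 TPM in OM alone (SD, n = 3 each, log2 fold change 0.18 with an SE of 0.043, limma adjusted p = 0.0462). The difference was small and the call was lost when any 1 of the 6 libraries was left out (adjusted p = 0.0606 to 0.137 from limma). All 6933 bases of its listed span lie within that of Eif1 on the other strand. Only spans are listed, so its reads and those of Eif1 may not have been told apart where exons overlap and strand was not used. The listed spans of Plod3 and Loxl2 also overlap those of other genes, by up to 10575 and 28619 bases. P3h3 had 61.7, 61.0 and 65.3 TPM with empagliflozin and 56.8, 59.4 and 60.5 TPM in OM alone, with no overlap (log2 fold change 0.088, adjusted p = 0.309 from limma). P3h1, which 3-hydroxylates type I collagen, overlapped between groups, with a log2 fold change of 0.062 (adjusted p = 0.408 from limma). P3h2 was under the filter, at 0.12 to 0.60 TPM with empagliflozin and 0.58 to 0.75 TPM without.

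The genes of procollagen cleavage in the rule, Bmp1 and Pcolce, overlapped between the groups. Bmp1, the C-proteinase, had 39.0, 38.5 and 38.1 TPM with empagliflozin and 35.3, 40.7 and 33.1 TPM in OM alone (log2 fold change 0.086, adjusted p = 0.523 from limma). Pcolce, which enhances this cleavage and ranked just below type I collagen among the 49 genes, had 1304, 1296 and 1261 TPM with empagliflozin and 1236, 1275 and 1197 TPM in OM alone (log2 fold change 0.059, 95% interval -0.045 to 0.16, adjusted p = 0.468 from limma). Of the procollagen proteinases outside the rule, Adamts2 and Adamts14 were higher in every OM plus EMPA library than in any OM library. Tll1 overlapped. Their log2 fold changes were 0.32, 0.35 and -0.28, and none passed the test (adjusted p = 0.0636, 0.228 and 0.286 from limma). Adamts2 passed under median-ratio scaling (adjusted p = 0.0456 from limma).

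Among the lysyl oxidases Loxl4 and Loxl3 fell. All 5 genes had a negative log2 fold change, and under median-ratio scaling Loxl2 was at 0.038 and Lox at -0.00050. Loxl4 had 6.57, 8.11 and 7.45 TPM in the OM plus EMPA libraries, against 10.6, 13.2 and 12.2 TPM in the OM libraries. Every OM plus EMPA library was below every OM library, with means of 7.38 ± 0.773 TPM with empagliflozin and 12.0 ± 1.31 TPM in OM alone (SD, n = 3 each, log2 fold change -0.63 with an SE of 0.11, limma adjusted p = 0.0149), and without OM replicate 3 the adjusted p was 0.0567 from limma. Loxl3 had 89.1, 86.4 and 84.9 TPM in the OM plus EMPA libraries, against 129, 111 and 104 TPM in the OM libraries. Here the OM plus EMPA libraries lay close together and OM replicate 1 was the highest (log2 fold change -0.39 with an SE of 0.077, limma adjusted p = 0.0272). The call of Loxl3 was lost without any 1 of the OM plus EMPA libraries or OM replicate 2 (adjusted p = 0.0538 to 0.0864 from limma), and its span, on chromosome 4 from 115540618 to 115557466, overlaps 551 bases of Htra2 on the other strand.

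The abundant lysyl oxidases did not pass the test. Lox, the founding member of the family, had 688, 666 and 648 TPM with empagliflozin and 668, 733 and 686 TPM in OM alone, with overlap (log2 fold change -0.059, 95% interval -0.17 to 0.056, adjusted p = 0.51 from limma). Loxl1, which is needed for elastic fibres in mouse, had 405, 374 and 393 TPM in the OM plus EMPA libraries, against 435, 429 and 442 TPM in the OM libraries. Its groups did not overlap (log2 fold change -0.16, 95% interval -0.26 to -0.056, adjusted p = 0.0742 from limma). Under median-ratio scaling the log2 fold change of Loxl1 was -0.098 (adjusted p = 0.214 from limma). Loxl2, which cross-links collagen IV, overlapped at 68.0 ± 4.38 TPM with empagliflozin and 69.0 ± 5.74 TPM without. The summed TPM of the 5 genes, as deposited and without median-ratio scaling, was 1220 ± 29.7 with empagliflozin and 1327 ± 30.7 without (SD, n = 3 each).

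The upstream window of Loxl4, on the minus strand of chr1:251365578-251365827 of GRCr8, is shown because it had the largest decrease among the enzymes.
Loxl4 upstream: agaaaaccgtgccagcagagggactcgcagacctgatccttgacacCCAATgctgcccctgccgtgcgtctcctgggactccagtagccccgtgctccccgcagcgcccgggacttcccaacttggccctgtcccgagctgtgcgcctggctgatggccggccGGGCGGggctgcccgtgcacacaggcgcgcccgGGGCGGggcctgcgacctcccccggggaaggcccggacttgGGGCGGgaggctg
The capitals mark 1 CCAAT box and 3 GC boxes. Col11a1, which rose, holds the same kinds of letters, so these counts do not separate the gene that rose from the gene that fell.

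Ratios between related genes within a library do not depend on how libraries are scaled to each other. They are given as descriptions, with no test. The ratio of Col1a1 to Col1a2 was 1.74, 1.67 and 1.65 in the OM plus EMPA libraries and 1.75, 1.73 and 1.67 in the OM libraries, and that of Col4a1 to Col4a2 was 1.51, 1.51 and 1.46 in the OM plus EMPA libraries and 1.49, 1.49 and 1.47 in the OM libraries. Both pairs encode chains of 1 protein, and both ratios overlapped between the groups and varied little between libraries. The ratio of Serpinh1 to Col1a1 was 0.223, 0.224 and 0.223 in the OM plus EMPA libraries and 0.242, 0.211 and 0.225 in the OM libraries, which also overlapped.

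The ratios below, of called genes to a related gene, did not overlap between the groups. Col11a1 relative to Col5a1, a chain with which it can share fibrils, was 0.754, 0.742 and 0.701 in the OM plus EMPA libraries and 0.472, 0.492 and 0.469 in the OM libraries. Col14a1 relative to Col1a1 was 0.0224, 0.0233 and 0.0213 in the OM plus EMPA libraries and 0.0144, 0.0145 and 0.0127 in the OM libraries. In both the OM plus EMPA libraries lay above the OM libraries with a gap wider than the range within either group. Col8a2 relative to Col8a1 was 1.91 times as high with empagliflozin in the mean, and Col4a5 relative to Col4a1 1.14 times. Col15a1 relative to Col18a1 was 0.336, 0.341 and 0.456 in the OM plus EMPA libraries and 0.866, 0.984 and 1.25 in the OM libraries. In OM alone the multiplexins were thus near equal in TPM, and with empagliflozin Col18a1 was the higher in each library. Relative to Lox, Loxl4 was at 0.644 and Loxl3 at 0.786 of the mean ratio in OM, with no overlap for either.

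**Figure D4:**
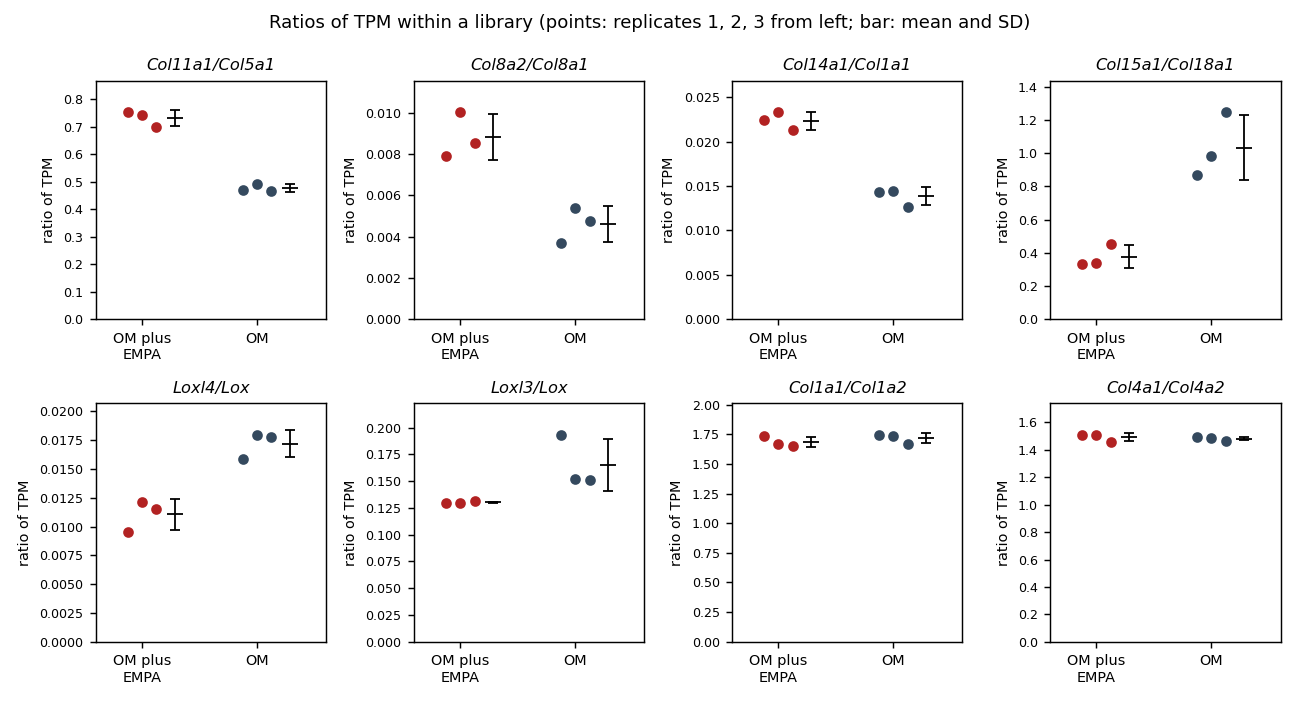
Ratios of TPM of gene pairs within each library, with replicates 1, 2 and 3 from left to right and the mean and SD (n = 3) beside them as a bar. Each axis starts at 0. The ratios with Col5a1, Col8a1 and Col1a1 as second gene in the first panels are higher in the OM plus EMPA libraries, those of Col15a1 to Col18a1 and of Loxl4 and Loxl3 to Lox are lower, and those of Col1a1 to Col1a2 and of Col4a1 to Col4a2 overlap.

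Genes that act on collagen but are not in the rule were taken from 5 lists, of folding and secretion, other procollagen proteinases, fibril regulators, receptors and breakdown. Of 57 genes named in the lists 43 were in the table and 39 were tested, and 2 rose and 6 fell, where 2.06% and 4.86% of all tested genes did. Their median log2 fold change was 0.045. Under median-ratio scaling 4 rose and 3 fell, where 3.11% and 3.03% of all tested genes did. With 1 library left out, where 2.58 to 5.21% of all tested genes were called, the number was 2 (OM plus EMPA replicate 2, and likewise OM replicate 3), 3 (OM replicate 1), 5 (each of the other OM plus EMPA libraries) or 6 (OM replicate 2), and Prelp was the only one of the 8 called in every such fit.

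Itga11, the integrin receptor subunit for fibrillar collagen on mesenchymal cells, rose, with 571, 589 and 588 TPM in the OM plus EMPA libraries, against 419, 483 and 467 TPM in the OM libraries (log2 fold change 0.35 with an SE of 0.057, limma adjusted p = 0.0132, and 0.0528 without OM plus EMPA replicate 2). Ddr2, a receptor tyrosine kinase for fibrillar collagen, fell, with 122, 112 and 122 TPM in the OM plus EMPA libraries, against 147, 140.0 and 154 TPM in the OM libraries (log2 fold change -0.30 with an SE of 0.053, limma adjusted p = 0.0181, and 0.0571 to 0.0654 when OM plus EMPA replicate 2, OM replicate 1 or OM replicate 3 was left out). The collagen receptors were thus not uniform in direction, and Itga1 and Itgb1 did not pass the test. Of the fibril regulators the small proteoglycan Fmod rose (log2 fold change 0.34 with an SE of 0.058, limma adjusted p = 0.0166, and 0.0544 to 0.0624 when OM plus EMPA replicate 2, OM plus EMPA replicate 3 or OM replicate 3 was left out). Prelp, a related proteoglycan that anchors collagen to basement membranes, fell, with 792, 775 and 803 TPM in the OM plus EMPA libraries, against 1043, 1104 and 1027 TPM in the OM libraries (log2 fold change -0.42 with an SE of 0.045, limma adjusted p = 0.00387).

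The other 4 that fell were Postn, Dcn, P4hb and Ctsk. Their log2 fold changes were -0.52 for Postn, -0.39 for Dcn, -0.23 for P4hb and -0.22 for Ctsk. P4hb, the disulfide isomerase that is the shared beta subunit of prolyl 4-hydroxylases, had 1840.0, 1857 and 1950.0 TPM in the OM plus EMPA libraries, against 2174, 2173 and 2264 TPM in the OM libraries (adjusted p = 0.035 from limma). It lay in the other direction from the alpha subunits, none of which passed the test. The calls of P4hb, Dcn and Ctsk, a collagen-degrading cathepsin, were lost under median-ratio scaling (adjusted p = 0.104, 0.0733 and 0.152 from limma), and those of P4hb and Ctsk were also lost without any 1 library. Of the fits with 1 library left out Dcn was called only in that without OM plus EMPA replicate 3, and Postn was not called without OM replicate 1 or 3.

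The identity of the cells was checked with lists of markers. Of 10 smooth muscle markers 9 were in the table, and 5 of 8 tested rose and 0 fell, where 2.06% and 4.86% of all tested genes did. The summed level of the 9 was 3120 to 3608 TPM with empagliflozin and 2260 to 2745 TPM in OM alone. Most of the sum was Tagln. Cnn1 was called in 5 of the 6 fits with 1 library left out, Acta2 and Lmod1 in 2 and Tagln and Cald1 in 1, and Myh11 had a log2 fold change of -0.17 and did not pass the test. Acta2 averaged 488 TPM with empagliflozin and 302 TPM in OM alone, and Tagln 2052 TPM with empagliflozin and 1528 TPM in OM alone. The sum was higher in every OM plus EMPA library, as were Col14a1, Col11a1 and Col8a2, and its part in those results was not tested. Of 10 adventitial fibroblast markers, the cells that make much of the collagen next to the muscle layer, 8 were in the table with summed levels of 1379 to 1422 TPM with empagliflozin and 1322 to 1406 TPM in OM alone. Scara5 rose among them, also without any 1 library. Pdgfra fell, but was not called when any 1 library was left out or under median-ratio scaling (adjusted p = 0.093 from limma). The groups overlapped in the sum, most of which was Lum, at 807 TPM with empagliflozin and 857 TPM in OM alone. The median log2 fold change of the 7 tested was 0.255. Mfap5 and Clec3b were higher in every OM plus EMPA library than in any OM library and did not pass the test (log2 fold changes 0.38 and 0.64). Lum, which did not pass either, and Dpt, which was under the filter, were lower in every OM plus EMPA library than in any OM library. Endothelial markers in the table were Egfl7 and Erg, at a sum of 24.3 to 26.2 TPM with empagliflozin and 21.3 to 25.4 TPM in OM alone, and the other 8 of that list were not analysed here. Fcer1g and Cd68 were the leukocyte markers in the table, at a sum of 119.8 to 128 TPM with empagliflozin and 124 to 133 TPM in OM alone, nearly all of it Fcer1g, and the other 8 were not analysed here. Cd68 fell, at 7.49 TPM with empagliflozin and 13.8 TPM in OM alone, and was called in 2 of the 6 fits with 1 library left out. Of 10 cartilage markers 3 were in the table, at sums of 24.6 to 25.3 TPM with empagliflozin and 16.8 to 19.3 TPM in OM alone. Sox9, chosen here after its values were seen, rose and carried the higher sum, while Comp averaged 4.51 TPM with empagliflozin and 5.52 TPM in OM alone and did not pass the test. The part of Sox9 in the result for Col11a1 was not tested. Of 8 osteoblast markers 3 were in the table, at sums of 926 to 1571 TPM with empagliflozin and 1955 to 2763 TPM in OM alone. Nearly all of it was Spp1, which fell and was called in 2 of the 6 fits with 1 library left out. Runx2 overlapped between the groups, at 12.0 TPM with empagliflozin and 12.4 TPM in OM alone (log2 fold change -0.041, adjusted p = 0.82 from limma). Alpl was under the filter, at 0.933 TPM with empagliflozin and 0.65 TPM in OM alone. In these bulk samples fewer cells of a type and less RNA per cell cannot be told apart. Transcripts of the mitochondrial genome took 10.3 to 10.9% of TPM with empagliflozin and 8.0 to 9.69% without. Without them the difference in the share of collagen chains was 0.227 percentage points.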

How the data were processed

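RNA of 6 samples of primary rat VSMCs was sequenced as read pairs by the study. In the submitters' processing notes the tools are fastp, HISAT2 2.0.5, RSEM and DESeq2, with no order, and no genome build is given in the sources used here. The deposited table lists 13526 genes, each with a TPM value per sample as the authors estimated it, and the columns sum to 997954 to 998293. It also holds their fold changes, p-values and annotation, and a second table repeats a subset of its genes. Neither the comparison columns nor the second table was used. TPM keep no depth, so no precision by depth can be given. Titles in the labels call the medium Pi and the treatment protocol calls it OM, and OM was followed. In other experiments of the study Pi stands for inorganic phosphate, a calcifying treatment separate from OM.

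Genes were tested with limma 3.58.1 in R 4.3.3 on log2(TPM + 1), group as the only term, with the prior variance following mean expression (trend), 4 residual and 3.8 prior degrees of freedom. The filter was a mean of 1 TPM. Values were summarised with Python 3.11.15, pandas 2.3.3, numpy 2.4.6 and matplotlib 3.10.9. Called genes, the 2 most abundant genes of each role, those whose call changed under median-ratio scaling and called genes of the 5 further lists are named, and others were added after their values were seen. The members and lists were chosen with earlier results of these data known. The code of the fit was run on simulated data with noise drawn independently in each library. That run does not cover shifts in scale between the groups or deviations shared by replicate number. Of the 49 genes, 41 matched a RefSeq upstream window by symbol, 8 of them called.

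Alternatives were a pseudocount of 0.1, no filter, 1 TPM in each library, median-ratio scaling, the replicate number as a block, no variance trend, each library left out, and adjusted p-values of 0.01 and 0.1. Another rescaled TPM to the sum without mitochondrially encoded genes, which stayed in the test. The block with median-ratio scaling was added after seeing the data.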

Additional observations from a re-analysis of the deposited data

How the results depend on the processing

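The number of collagen and collagen-modifying genes called was 10 with a pseudocount of 0.1, without a filter and with 1 TPM in each library (6.86, 6.10 and 7.46% of all tested genes), 13 with median-ratio scaling (6.14%) and 7 without a variance trend (4.14%). With TPM rescaled to the sum without mitochondrially encoded genes it was also 10 (6.22%), now 7 higher and 3 lower. Col18a1 was gained and Col5a3 lost (adjusted p = 0.0388 and 0.0513 from limma). It was 2 at an adjusted p of 0.01 (1.54%) and 17 at 0.1 (12.3%), 12 of them higher. With 1 library left out it was 5 to 8, and 2 to 6 for the further collagen genes, where 2.58 to 5.21% of all tested genes were called. The further collagen genes called numbered 8 with all libraries and 3 without a variance trend (6.92 and 4.14% of all tested genes). The median log2 fold change of the collagen and collagen-modifying genes tested stayed between 0.068 and 0.17 under every alternative. The log2 fold change of Col17a1, 0.024 with all libraries, became -0.0046 when OM plus EMPA replicate 1 was left out and -0.083 when OM replicate 1 was. With 1 library left out that of Plod1, 0.0070 with all libraries, lay between -0.021 and 0.030, with -0.0032 when OM replicate 1 and -0.0034 when OM replicate 2 was left out. The causes were not tested. The depth of the libraries is unknown, which limits statements on genes near 1 TPM.

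Replicate numbers are shared by the groups, but the sources do not say what they mark. Over all tested genes the deviations of same-numbered libraries from their group means correlated at 0.10, 0.16 and 0.06 for numbers 1, 2 and 3, and each library correlated best with its own number, a hint from the data and not from the design. Over the 42 genes the correlations were 0.53, 0.80 and 0.78. With the replicate number as a block 19 of them were called, 14 higher and 5 lower, where 3.57% and 7.57% of all tested genes were. The block with median-ratio scaling, chosen after seeing the data, called 22 of them, 18 higher and 4 lower, where 5.30% and 4.80% of all tested genes were, and 14 of the further genes. With the block alone Col1a1, Col1a2, Col3a1, Col5a2, Col8a1, P4ha3, Plod2, Serpinh1 and Loxl1 were called beside the 10, at adjusted p-values of 0.0129 to 0.0494 from limma.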

Other observations

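The 5 letter patterns were counted in the upstream windows of the 41 collagen and collagen-modifying genes with a RefSeq entry, as a description with no test. A GC box was in 27 of them (65.9%, against 30.5% of all 33469 windows), a CCAAT box in 9 (22.0%, against 34.0%), the Runx core in 5 (12.2%, against 14.5%), a TATA box in 2 (4.9%, against 12.9%) and the AP-1 letters in 1 (2.4%, against 6.3%). The 2 with a TATA box were Col1a2 and Col17a1, and the 1 with AP-1 letters was Col6a1. Col8a1, Col4a6, P3h1, P4ha2 and Plod3 held the Runx core, and none of them passed the test on TPM as deposited. Windows of genes that are GC-rich hold more GC boxes by base composition, and no adjustment for it was made. The 33469 windows were also not restricted to the 13526 genes in the authors' table, from which the 41 come.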
